A study of Homo sapiens with 30 samples.

Results

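Expression of PPARA, which encodes the nuclear receptor PPAR alpha, and of 7 genes of fatty acid handling was followed in HepG2 cells treated with Sorafenib. The 8 genes were chosen by name, with earlier results of these data known. They were PPARA, PLIN2, CPT1A, PDK4, ANGPTL4, ACADVL, FABP1 and CPT2, and all 8 were found among the 60107 genes of the count table. HepG2 is an established liver cancer cell line, given as hepatocellular carcinoma in the sample labels and as hepatoblastoma in the study's text. Sorafenib blocks several kinases and is used against liver cancer.

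Cells were transfected with an oligonucleotide and received, 24 h later, Sorafenib at 10 µM or its vehicle dimethyl sulfoxide (DMSO). Lysates taken at 6 h came from cells with the inhibitor control (IC) or the miR-200c-3p inhibitor (I200c), which blocks that miRNA. Lysates taken at 24 h came from cells with the mimic control (MC) or a mimic, a synthetic copy of a miRNA, which was that of miR-222-5p in M222 and that of miR-512-3p in M512. Each of these 5 transfections was measured with DMSO and with Sorafenib in 3 libraries, which gave 10 groups and 30 libraries. The study calls the replicates biological, but all come from a single cell line and nothing states how their cultures were kept apart, so p-values measure the spread between these libraries. QuantSeq 3′ FWD libraries were sequenced, in which reads start near the 3′ end of polyadenylated transcripts.

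PPAR alpha is a ligand-activated transcription factor that pairs with the retinoid X receptor and binds DNA at PPAR response elements, which are direct repeats of AGGTCA with a single base between the copies. Fatty acids and fibrate drugs activate it, and in hepatocytes its known target genes cover fatty acid uptake, mitochondrial and peroxisomal oxidation and ketone body synthesis during fasting. Long-chain fatty acids enter mitochondria through CPT1A and CPT2 and are then shortened from the first step catalysed by ACADVL.

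The sequences of the 3 miRNAs are shown because each acts through pairing of its seed, bases 2 to 8, with the 3′ untranslated region (UTR) of a transcript. They are the RefSeq mature sequences on GRCh38.p14, 5′ to 3′, with the seed in capitals.
miR-200c-3p (chr12:6963742-6963764, plus strand): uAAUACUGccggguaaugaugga
miR-222-5p (chrX:45747073-45747094, minus strand): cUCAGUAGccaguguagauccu
miR-512-3p (chr19:53666729-53666750 and chr19:53669213-53669234, plus strand): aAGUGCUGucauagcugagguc

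A seed site is the 7-base complement of the seed, so that miR-200c-3p has CAGTATT, miR-222-5p has CTACTGA and miR-512-3p has CAGCACT. Of 19218 annotated 3′ UTRs (GENCODE release 44, GRCh38), 16.2%, 9.25% and 19.7% held the respective site. PPARA, whose 3′ UTR of 8375 bases is the longest of the 8, held 4 sites of miR-512-3p and 2 of miR-200c-3p. CPT1A (2761 bases) held 1 of each, and ACADVL (169 bases) held 1 of miR-512-3p. The UTRs of PLIN2 (487 bases), PDK4 (2142 bases), ANGPTL4 (484 bases), FABP1 (72 bases) and CPT2 (602 bases) held no site of the 3 miRNAs, and no site of miR-222-5p was found in the 8 genes. Of the 6 miR-512-3p sites, 2 of PPARA and that of ACADVL are shown with their flanks, the site in capitals, because PPARA was lower with that mimic in the comparison with Sorafenib described below.
PPARA (chr22:46235415-46235440, plus strand): tctgaagctgaCAGCACTacaaagga
PPARA (chr22:46235783-46235808, plus strand): tgaaaactaatCAGCACTttttaaca
ACADVL (chr17:7225191-7225216, plus strand): cctagtgttccCAGCACTgtgcctgc

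A match of letters is a description and not evidence that the site is used.

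**Figure D1:**
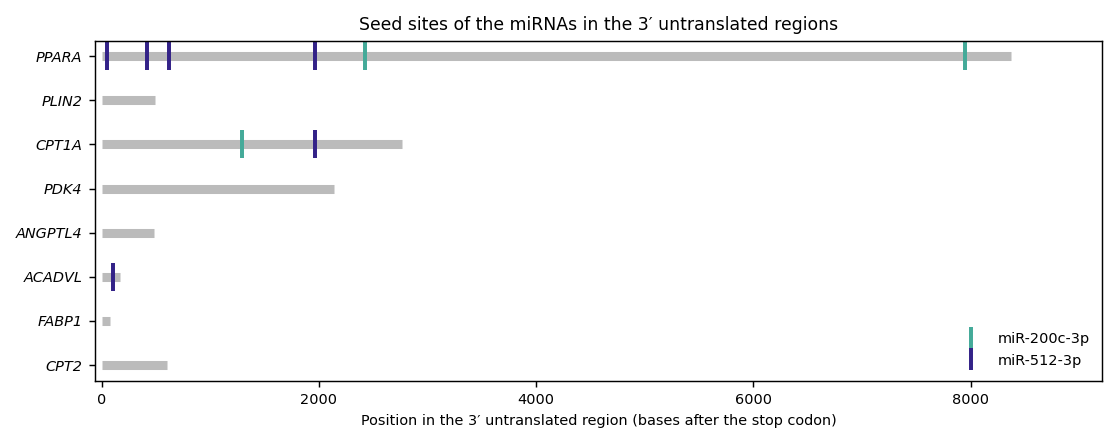
Position of miRNA seed sites in the 3′ UTRs of the 8 genes, in bases after the stop codon, with grey bars for the length of each UTR. PPARA carries 4 sites of miR-512-3p and 2 of miR-200c-3p, CPT1A 1 of each and ACADVL 1 of miR-512-3p, while the other 5 UTRs carry none.

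Promoters were searched in RefSeq windows on GRCh38.p14 that hold 250 bases before and 50 after an annotated start of each gene. These starts can differ from those of the GENCODE gene positions given below. They do so for PLIN2 (window chr9:19127443-19127742) and ANGPTL4 (window chr19:8363905-8364204). Among 35116 windows, 8 (0.0228%) held an exact pair of AGGTCA copies with 1 base between them on either strand, 1043 (2.97%) a pair with at most 2 of its 12 fixed bases different, and 4857 (13.8%) at least 1 AGGTCA. None of the 8 genes held an exact pair in its window. Bases outside the windows were not searched, so a window without a pair does not show that the gene lacks one. FABP1 was the only gene of the 8 with a pair at up to 2 mismatches, on the strand opposite to the gene and starting 68 bases before its start. It was also the only gene of the 8 that held AGGTCA on either strand. The stretch is shown on the gene's strand, with the pair in capitals.
FABP1 (chr2:88128109-88128138, minus strand): acagctgcTGACCTCTGGCCGctattcgaa

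Library totals were 3940000 to 9660000 counts (median 6460000). Levels are given in CPM, the count of a gene scaled to a common library size, here with edgeR's TMM factors. With 3 counts taken as the limit of a count of 0, genes under 0.308 to 0.737 CPM, depending on the library, could be missed by counting error alone. Mitochondrial genes held 17.5% to 26.8% of the counts. All 10 hepatocyte markers were counted in every library, with a summed level of 7754 to 17649 CPM, while the summed markers of fibroblasts, endothelial cells and adipocytes reached at most 13.7, 3.05 and 1.49 CPM, with 3 of 6, 2 of 4 and 2 of 4 of them at 0 in all libraries. Those of blood cells, with 1 of 5 at 0, reached 195 CPM, of which HBB made up 187 CPM in M512_DMSO replicate 3. When TMM was replaced by total counts alone, the all-gene median of the log2 fold change under Sorafenib moved by -0.11 for MC, by -0.11 for M222 and by -0.19 for M512. That of M512 against MC in Sorafenib moved by -0.12. The calls then held a smaller share of higher genes in MC (69.5% to 50.1%), M222 (64.3% to 47.9%) and M512 (53.6% to 29.9%). For M512 against MC that share went from 41.7% to 27.4% in DMSO and from 10.6% to 3.3% in Sorafenib. Directions below are on the TMM scale.

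Of the 8 genes, 7 passed the filter on low counts and could be tested. PDK4, a kinase that turns off pyruvate dehydrogenase when fat is burnt, was not among them. It had 0 counts in 27 of 30 libraries and at most 3, in IC_Sorafenib replicate 1. PDK4 was thus at or under the limit of detection at this depth in all 30 libraries and gave no test. ANGPTL4, a secreted inhibitor of lipoprotein lipase, passed the filter with only 0 to 32 counts per library and 0 counts in 5 libraries. The other members ranged over the libraries from 3.90 to 40.5 CPM for PPARA, 3.59 to 26.9 for CPT2, 32.7 to 129 for CPT1A, 50.2 to 114 for ACADVL, 55.4 to 347 for FABP1 and 249 to 621 for PLIN2.

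**Figure D2:**
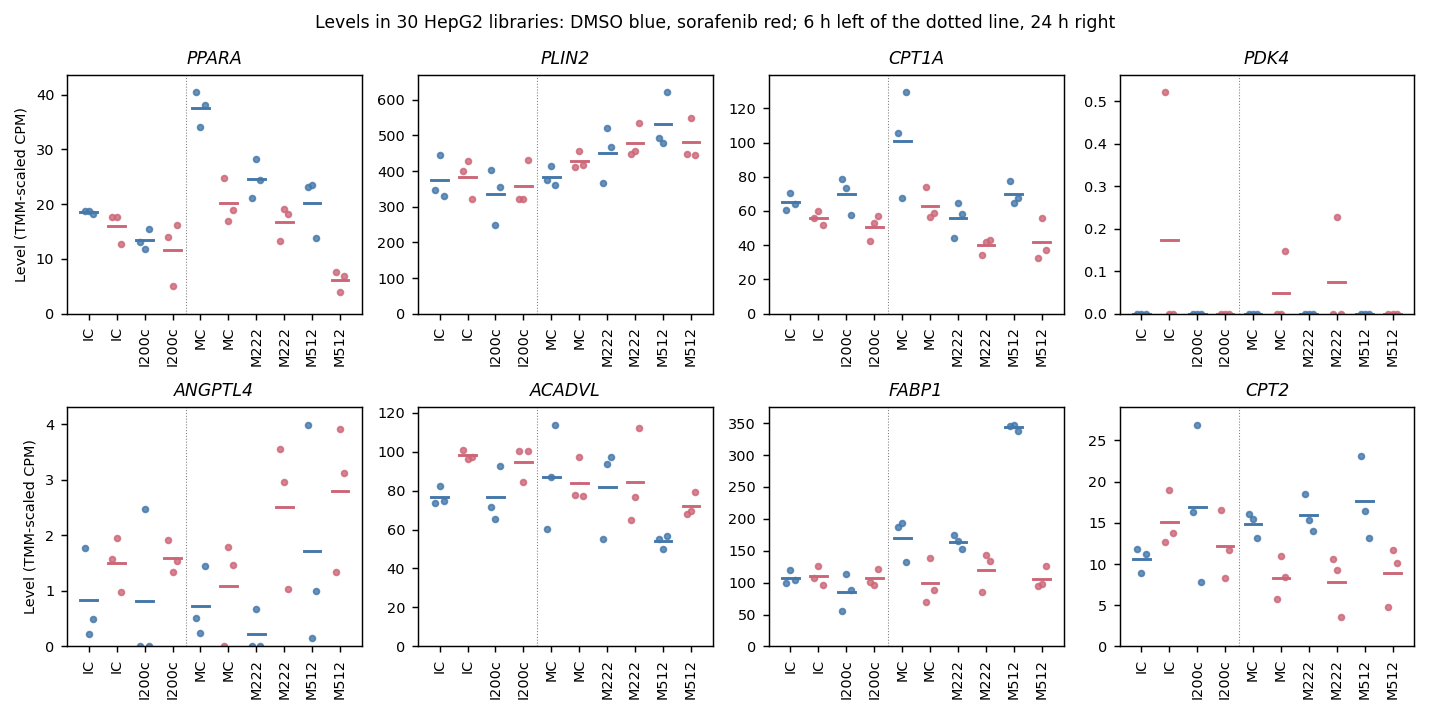
Level of each of the 8 genes in every library, in TMM-scaled CPM on a linear axis from 0, with points for libraries (DMSO blue, Sorafenib red) and bars for group means. FABP1 is highest in M512 with DMSO (337 to 347 CPM), PPARA is highest in MC with DMSO (34.2 to 40.5 CPM) and lowest in M512 with Sorafenib (3.90 to 7.70 CPM), and PDK4 is at 0 in 27 of 30 libraries.

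Sorafenib lowered PPARA and FABP1 at 24 h in cells with the miR-512-3p mimic, each 3.23-fold, and changed no member past the threshold in the other 4 transfections. PPARA, the receptor itself, fell by 1.69 on the log2 scale in M512 (SE 0.31, Benjamini-Hochberg adjusted edgeR p 0.00103), which is 3.23-fold lower. FABP1, the main cytosolic fatty acid binding protein of hepatocytes, fell by 1.69 as well (SE 0.24, Benjamini-Hochberg adjusted edgeR p 4.72e-05), which is 3.23-fold lower. CPT1A and CPT2, the enzymes of the carnitine shuttle, did not pass the test in any of the 5 transfections. PLIN2, which coats lipid droplets, differed by at most 0.17 on the log2 scale in each of the 5 transfections.

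Of the 7 members tested, edgeR called 2 in M512, both lower, where 9.96% of all 13244 genes tested were called and 4.62% were called lower. The count was 0 in MC, where 2.60% of genes were called, and 0 in M222, where 4.38% were called. At 6 h it was 0 in IC and 0 in I200c, where 0.0393% and 2.28% of 12738 genes were called. At an unadjusted p under 0.05 there were 1 member in IC, 1 in I200c, 4 in MC, 2 in M222 and 4 in M512. Over all genes tested the counts were 481 and 1945 of 12738 in IC and I200c. They were 2232, 2531 and 3205 of 13244 in MC, M222 and M512. DESeq2 called 0 members in IC, I200c and M222, 2 in MC (PPARA and FABP1, lower) and 3 in M512, with CPT1A as the addition. The median log2 fold change of the 7 genes tested was -0.68 in MC, -0.45 in M222 and -0.74 in M512, against -0.01, -0.03 and -0.03 over all genes.

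**Figure D3:**
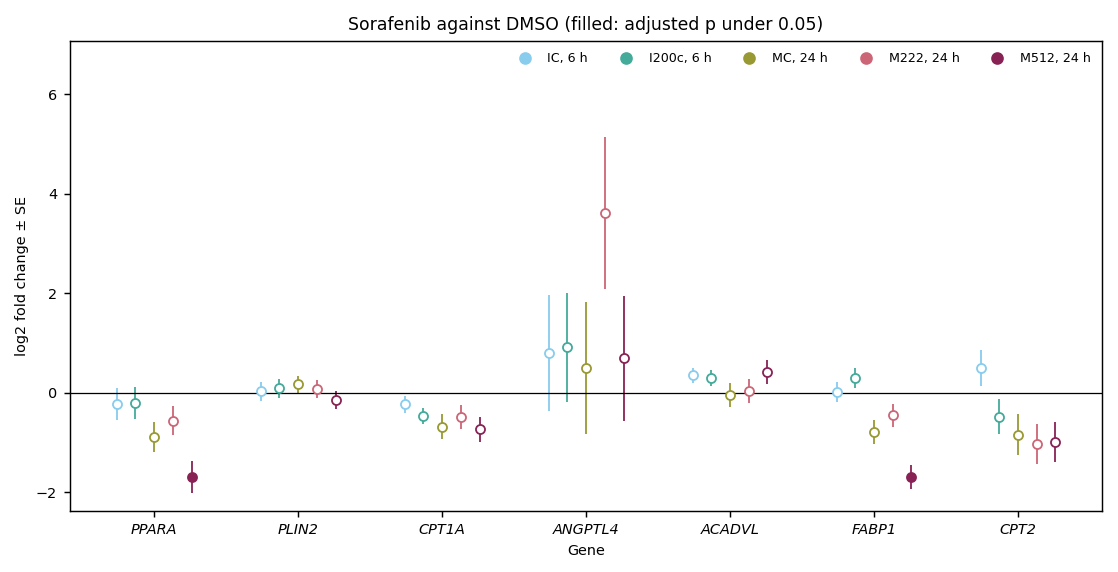
Effect of Sorafenib against DMSO on the 7 members tested, as log2 fold change with bars of 1 SE, in each of the 5 transfections with 3 libraries a group. Filled points, PPARA and FABP1 in M512 at -1.69 each, passed an adjusted p of 0.05, and the long bars of ANGPTL4 come from 0 to 32 counts per library.

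PPARA (ENSG00000186951, chr22:46150521-46243755, plus strand) had its highest level in MC with DMSO, at 40.5, 34.2 and 38.1 CPM. With Sorafenib the 3 MC libraries read 24.9, 16.9 and 18.9 CPM. Every Sorafenib library of MC was below every DMSO library, with a log2 fold change of -0.88 (SE 0.30) that missed the threshold (Benjamini-Hochberg adjusted edgeR p 0.108). In M512 it stood at 23.1, 23.6 and 13.7 CPM with DMSO and at 7.70, 3.90 and 6.97 CPM with Sorafenib. These groups did not overlap either, and the highest Sorafenib library lay well below the lowest DMSO library. The M512_Sorafenib libraries differed among themselves, with mitochondrial shares of 24.2%, 24.2% and 17.5%, 13656, 13866 and 16582 genes detected and TMM factors of 0.908, 0.827 and 0.937, where M512_DMSO held 19.7% to 20.2%, 14641 to 16114 genes and 1.01 to 1.02. Without each of the 6 libraries in turn, the log2 fold change of PPARA was -1.87 to -1.46 and the highest adjusted p 0.00952 (edgeR, Benjamini-Hochberg), and for FABP1 they were -1.81 to -1.60 and 0.000780. In M222 it went from 21.1, 28.2 and 24.5 CPM to 13.2, 19.1 and 18.1 CPM, again without overlap (log2 fold change -0.56, SE 0.30, Benjamini-Hochberg adjusted edgeR p 0.319). At 6 h the IC libraries read 18.9, 18.8 and 18.3 CPM with DMSO and 17.7, 17.7 and 12.7 CPM with Sorafenib. Those of I200c read 13.1, 11.8 and 15.5 CPM with DMSO and 13.9, 5.03 and 16.1 CPM with Sorafenib and overlapped. The log2 fold changes at 6 h were -0.22 in IC (SE 0.32) and -0.21 in I200c (SE 0.32). The number of all genes whose groups did not overlap was not counted. Separation of groups is thus only a description, here and below.

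In the order of group means, PPARA in MC_DMSO (37.6 ± 3.18 CPM, SD, n = 3) stood above M222_DMSO (24.6 ± 3.55 CPM) by 3.65 times the larger SD. M222_DMSO stood above MC_Sorafenib (20.2 ± 4.13 CPM) by 1.05 times the larger SD. No further pair of neighbours in that order was separated by more than the larger SD, including I200c_Sorafenib (11.7 ± 5.89 CPM) and the lowest group, M512_Sorafenib (6.19 ± 2.02 CPM).

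FABP1 (ENSG00000163586, chr2:88122982-88128062, minus strand) was highest in M512 with DMSO, at 346, 347 and 337 CPM, and fell to 95.3, 98.3 and 125 CPM with Sorafenib. The 6 libraries formed 2 groups far apart, and the level with Sorafenib lay in the range of the other Sorafenib groups. In MC the values were 187, 193 and 132 CPM with DMSO and 69.4, 139 and 88.2 CPM with Sorafenib. The MC groups overlapped, since MC_Sorafenib replicate 2 was above MC_DMSO replicate 3 (log2 fold change -0.79, SE 0.23, Benjamini-Hochberg adjusted edgeR p 0.0676, 0.00862 without MC_Sorafenib replicate 2 and 0.317 without MC_Sorafenib replicate 1, with 1 of 6 such fits past the threshold). M222 went from 175, 165 and 152 CPM to 84.7, 144 and 134 CPM without overlap (log2 fold change -0.45, SE 0.23, Benjamini-Hochberg adjusted edgeR p 0.289). At 6 h the groups overlapped in both transfections, with values of 99.4 to 120.2 CPM in IC_DMSO, 96.7 to 126 in IC_Sorafenib, 55.4 to 113 in I200c_DMSO and 96.8 to 122 in I200c_Sorafenib.

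M512_DMSO (343 ± 5.60 CPM) exceeded the next FABP1 group, MC_DMSO (171 ± 33.6 CPM), by 5.15 times the larger SD. M222_DMSO (164 ± 11.6 CPM) exceeded M222_Sorafenib (121 ± 31.5 CPM) by 1.38 times. The other neighbours in the FABP1 order lay within the larger SD. The summed hepatocyte markers moved in the same way, from 16568 to 17649 CPM in M512_DMSO to 9907 to 11714 CPM in M512_Sorafenib, and from 12969 to 14502 CPM in MC_DMSO to 9328 to 11586 CPM in MC_Sorafenib and from 11527 to 13913 CPM in M222_DMSO to 7754 to 10678 CPM in M222_Sorafenib. The markers weigh unequally in this sum, so it does not show that each marker moved. Over the libraries ALB, APOB and AFP reached 5135, 5980 and 3207 CPM, and TTR, FGB and HNF4A reached 105.5, 282 and 294 CPM. The part of these markers in the FABP1 result was not tested. Fewer cells of a kind and less RNA per cell cannot be told apart in bulk libraries.

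CPT1A (ENSG00000110090, chr11:68754620-68844410, minus strand), the rate-limiting enzyme of mitochondrial fatty acid entry, did not pass the test by edgeR in any of the 5 transfections. In M512 the DMSO libraries read 77.3, 64.6 and 67.9 CPM and the Sorafenib libraries 32.7, 56.0 and 37.2 CPM. The M512 groups did not overlap, and the log2 fold change of -0.74 (SE 0.24) had an adjusted p of 0.0570 (edgeR, Benjamini-Hochberg), which was 0.0171 without M512_Sorafenib replicate 2 and 0.228 without M512_Sorafenib replicate 1, with 1 of 6 such fits past the threshold. In MC the values were 105, 67.8 and 129 CPM with DMSO and 73.9, 56.3 and 58.7 CPM with Sorafenib, with an overlap that came from MC_DMSO replicate 2 (log2 fold change -0.68, SE 0.24, Benjamini-Hochberg adjusted edgeR p 0.134). Groups did not overlap in M222, IC or I200c, with log2 fold changes of -0.48 (SE 0.25), -0.23 (SE 0.17) and -0.46 (SE 0.17). The smallest adjusted p of these 3 was 0.164, in I200c (edgeR, Benjamini-Hochberg).

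CPT2 (ENSG00000157184, chr1:53196792-53214197, plus strand), which rebuilds the acyl-CoA inside the mitochondrion, was lower with Sorafenib in all 3 transfections of 24 h. The levels went from 16.0, 15.5 and 13.2 CPM to 5.73, 10.9 and 8.37 CPM in MC and from 23.1, 16.4 and 13.2 CPM to 4.82, 11.7 and 10.1 CPM in M512. In M222 they went from 18.4, 15.3 and 14.1 CPM to 10.7, 9.31 and 3.59 CPM. In each of the 3 comparisons the Sorafenib libraries lay below the DMSO libraries, but none passed the threshold. The log2 fold changes were -0.84 (SE 0.40) in MC, -1.02 (SE 0.41) in M222 and -0.99 (SE 0.40) in M512. Their adjusted p were 0.295, 0.159 and 0.123 (edgeR, Benjamini-Hochberg). At 6 h the value of CPT2 was 0.50 (SE 0.37) in IC, where the Sorafenib libraries (12.7 to 19.0 CPM) lay above the DMSO libraries (8.96 to 11.8 CPM), and -0.48 (SE 0.35) in I200c. The last 99 bases of CPT2 overlap CZIB on the opposite strand, and since the counting is not stated to use strand, reads of these genes may not be told apart there.

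ACADVL (ENSG00000072778, chr17:7217125-7225266, plus strand), the very long-chain acyl-CoA dehydrogenase, was measured in IC at 73.4, 82.3 and 74.5 CPM with DMSO and 101, 96.1 and 97.4 CPM with Sorafenib, without overlap. The log2 fold change of 0.35 (SE 0.16) had an unadjusted p of 0.0396 and an adjusted p of 0.999 (edgeR, Benjamini-Hochberg). In I200c it was 0.30 (SE 0.16) with an overlap of the groups. At 24 h the difference was -0.04 (SE 0.25) in MC, 0.04 (SE 0.25) in M222 and 0.42 (SE 0.25) in M512. In M512 the ACADVL libraries with Sorafenib (68.0 to 79.2 CPM) lay above those with DMSO (50.2 to 56.5 CPM). The means of these 2 groups, the lowest in the ACADVL order, differed by 3.02 times the larger SD. The adjusted p in M512 was 0.312 (edgeR, Benjamini-Hochberg).

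PLIN2 (ENSG00000147872, chr9:19108375-19149290, minus strand) had group means of 335 to 531 CPM, with every neighbour in that order within the larger SD. The effect of Sorafenib ranged from -0.14 (SE 0.17) in M512 to 0.17 (SE 0.18) in MC on the log2 scale. All 5 comparisons of PLIN2 with Sorafenib overlapped.

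ANGPTL4 (ENSG00000167772, chr19:8363289-8374370, plus strand) was counted 0, 3 and 0 times in M222 with DMSO and 28, 13 and 6 times with Sorafenib. These libraries did not overlap, at 0 to 0.677 CPM against 1.03 to 3.55 CPM. The fitted log2 fold change of 3.62 (SE 1.53, Benjamini-Hochberg adjusted edgeR p 0.186) rests on so few counts that it depends on the prior count of the fit and bounds nothing. In the other 4 transfections the ANGPTL4 groups overlapped, and the fitted differences were 0.50 to 0.92.

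The time of treatment was compared through the control transfections, asking whether the effect of Sorafenib in MC at 24 h differed from that in IC at 6 h. No member passed this interaction test among 12500 genes, of which 0.216% were called (27 genes). At an unadjusted p under 0.05 there were 3 members, all with the lower value at 24 h, beside 1709 of the 12500 genes. DESeq2 called 0 members. The difference of the log2 fold changes was -1.37 for CPT2 (SE 0.42, Benjamini-Hochberg adjusted edgeR p 0.163), -0.84 for FABP1 (SE 0.30, adjusted p 0.230) and -0.69 for PPARA (SE 0.32, adjusted p 0.345). FABP1 passed the threshold in 1 of the 12 fits that left out a library, without MC_Sorafenib replicate 2 (-1.15, Benjamini-Hochberg adjusted edgeR p 0.0360). Without MC_Sorafenib replicate 3 the adjusted p was 0.430. Time and the kind of control oligonucleotide changed together here and cannot be told apart.

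The mimics and the inhibitor were next compared with their controls within each treatment. Cells with the miR-512-3p mimic held more FABP1 than control cells in DMSO and less PPARA than control cells in Sorafenib. FABP1 was 1.99-fold higher in M512_DMSO than in MC_DMSO (log2 fold change 1.00, SE 0.23, Benjamini-Hochberg adjusted edgeR p 0.0459). With Sorafenib PPARA was 3.29-fold lower in M512 than in MC (log2 fold change -1.72, SE 0.32, Benjamini-Hochberg adjusted edgeR p 0.0100). Neither the miR-222-5p mimic nor the miR-200c-3p inhibitor moved a member past the threshold.

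The FABP1 difference in DMSO separated all 3 M512 libraries (337 to 347 CPM) from all 3 MC libraries (132 to 193 CPM). It passed the threshold in 0 of the 6 fits that left out a library of these groups, where the log2 fold change was 0.85 to 1.11 and the highest adjusted p was 0.275, without MC_DMSO replicate 3 (edgeR, Benjamini-Hochberg). Beside it, M512_DMSO held 16568 to 17649 CPM of summed hepatocyte markers against 12969 to 14502 CPM in MC_DMSO. Summed fibroblast markers were at 11.8 to 13.7 CPM against 1.65 to 4.42 CPM. Of these, COL1A2, DCN and LUM were at 0 in all libraries. The highest level in any library was 11.7 CPM for COL1A1, 5.94 CPM for PDGFRB and 0.223 CPM for COL3A1. The part of either marker set in the FABP1 difference was not tested. In Sorafenib the FABP1 values of M512 and MC overlapped, at 0.09 (SE 0.23). It was the 1 member called of 7 in DMSO, where 0.634% of all genes tested were called, and DESeq2 called 1 member as well.

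The lower PPARA in M512 with Sorafenib separated 3.90 to 7.70 CPM from 16.9 to 24.9 CPM in MC. It passed in 5 of the 6 fits that left out a library and had an adjusted p of 0.0633 without MC_Sorafenib replicate 1 (edgeR, Benjamini-Hochberg). PPARA, at 20 to 56 counts in M512_Sorafenib, was the 1 member called in this comparison. Of all genes 0.355% were called, and 42 of these 47 were lower. DESeq2 called 1 member as well. In DMSO the PPARA levels of M512 (13.7 to 23.6 CPM) were also below those of MC (34.2 to 40.5 CPM), with a log2 fold change of -0.91 (SE 0.30, Benjamini-Hochberg adjusted edgeR p 0.197). PPARA carries 4 of the 6 miR-512-3p seed sites described above. CPT1A and ACADVL, which carry the others, differed in M512 from MC by -0.55 (SE 0.24) and -0.70 (SE 0.25) in DMSO and by -0.61 (SE 0.25) and -0.23 (SE 0.25) in Sorafenib, none past the threshold. PLIN2, without a site, stood at 493, 479 and 621 CPM in M512_DMSO and at 373, 413 and 360.3 CPM in MC_DMSO (log2 fold change 0.46, SE 0.18, Benjamini-Hochberg adjusted edgeR p 0.297). CPT2, also without a site, differed by 0.23 (SE 0.39) in DMSO and 0.08 (SE 0.41) in Sorafenib. ANGPTL4, without a site, differed by 1.15 (SE 1.31) and 1.35 (SE 1.30). The miR-222-5p mimic, with no site in the 8 genes, also had lower fitted PPARA and CPT1A than the same MC libraries, at the values given below. The part of the sites was not tested. At an unadjusted p under 0.05 there were 5 members in DMSO and 2 in Sorafenib, beside 1385 and 1465 of all 13244 genes tested.

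**Figure D4:**
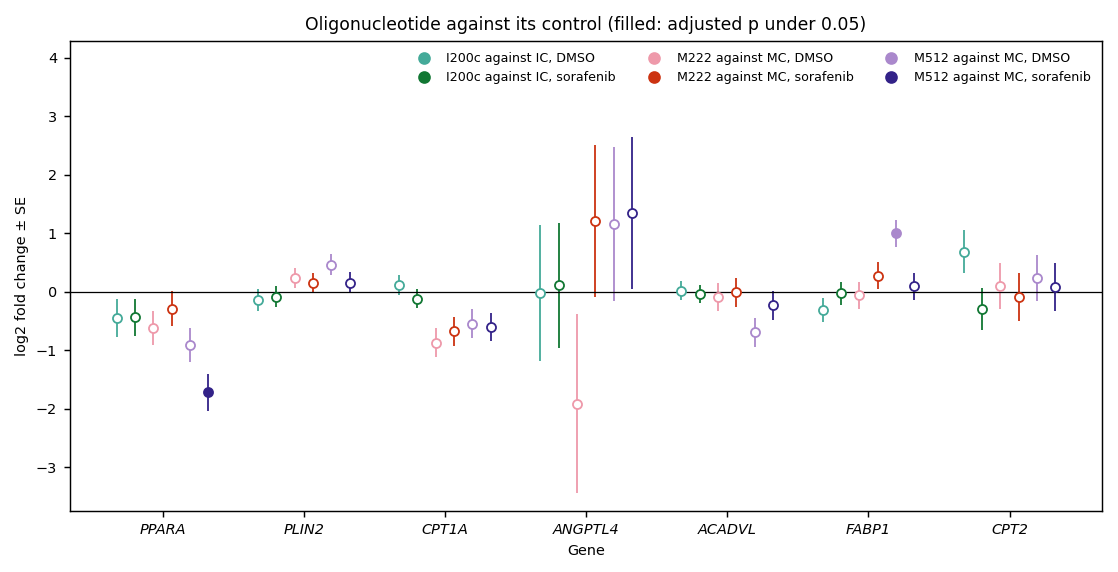
Difference between each mimic or inhibitor and its control, as log2 fold change with bars of 1 SE, for the 7 members tested, in DMSO and in Sorafenib, with 3 libraries a group. Filled points, FABP1 in M512 with DMSO (1.00) and PPARA in M512 with Sorafenib (-1.72), passed an adjusted p of 0.05.

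The miR-222-5p mimic shared its MC libraries with the miR-512-3p mimic, so the values of these comparisons are not independent. CPT1A read 44.2, 64.5 and 58.3 CPM in M222_DMSO and 34.5, 42.0 and 43.3 CPM in M222_Sorafenib. Both lay below the MC libraries of the same treatment without overlap. The log2 fold changes against MC were -0.87 (SE 0.24, Benjamini-Hochberg adjusted edgeR p 0.356) in DMSO and -0.68 (SE 0.25, adjusted p 0.680) in Sorafenib. For PPARA they were -0.62 (SE 0.29, adjusted p 0.891) and -0.30 (SE 0.30, adjusted p 0.963). No member and no gene of all tested was called for M222 against MC (0% of 13244 in DMSO and 0% in Sorafenib by edgeR), with 2 members and 737 genes at an unadjusted p under 0.05 in DMSO and 1 member and 800 genes in Sorafenib. DESeq2 called 33 and 24 genes and 0 members.

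For the miR-200c-3p inhibitor, edgeR called 0 members in DMSO, where 0.0157% of 12738 genes were called, and 0 members in Sorafenib, where 0% were called. No member had an unadjusted p under 0.05 in either treatment, against 667 genes in DMSO and 273 in Sorafenib, and DESeq2 called 0 members. PPARA, with 2 sites of this miRNA, differed from IC by -0.45 (SE 0.32) in DMSO and -0.44 (SE 0.32) in Sorafenib. CPT1A, with 1 site, differed by 0.11 (SE 0.17) and -0.12 (SE 0.17). The largest fitted difference was that of CPT2 in DMSO, 0.68 (SE 0.36, Benjamini-Hochberg adjusted edgeR p 0.940). CPT2 read 16.3, 26.9 and 7.79 CPM in I200c_DMSO, which overlapped IC_DMSO (8.96 to 11.8 CPM). The highest of these libraries, replicate 2, had a mitochondrial share of 26.8%, against 19.9% and 18.2% in replicates 1 and 3.

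Whether a mimic or the inhibitor altered the effect of Sorafenib was tested as an interaction. EdgeR called 0 members for I200c, M222 and M512, where 0%, 0% and 0.00755% of all genes were called, and DESeq2 called 0 members as well. At an unadjusted p under 0.05 there were 0, 0 and 1 members and 413, 260 and 667 genes. The 1 member was FABP1, whose effect of Sorafenib was lower in M512 than in MC by 0.90 on the log2 scale (-0.90, SE 0.33, Benjamini-Hochberg adjusted edgeR p 0.871). For PPARA the same difference was -0.81 (SE 0.43, adjusted p 0.965). The effects of Sorafenib on PPARA and FABP1 are thus not shown to differ between M512 and MC.

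The other genes of the pathway were taken from 9 lists of 128 genes in all, of which 97 were tested at 6 h and 98 at 24 h. EHHADH, SULT2A1, LIPC and DGAT2 fell with Sorafenib at 24 h in MC and in M512, and EHHADH fell in M222 as well. The summed hepatocyte markers moved the same way in these transfections, at the levels given for FABP1, and their part in the list genes was not tested. EdgeR called 4 of the 98 in MC, all lower (4.08%, where 0.793% of all genes were called lower). It called 1 in M222, lower (1.02%, beside 4.38% of all genes called, with 207 of 13244 called lower). In M512 it called 18 (18.4%, beside 9.96%). Of the 18 in M512, 16 were lower (16.3%, beside 4.62% of all genes) and 2 higher. In IC and I200c edgeR called 0 of 97, with 0 and 1 called by DESeq2. An unadjusted p under 0.05 was found for 3 and 10 of the 97, beside 481 and 1945 of all 12738 genes. The median log2 fold change over the lists was -0.26 in MC, -0.24 in M222 and -0.31 in M512, against -0.01, -0.03 and -0.03 over all genes.

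EHHADH, the bifunctional enzyme of peroxisomal oxidation, went from 52.9 ± 10.9 to 18.3 ± 2.91 CPM in MC (SD, n = 3). In M222 it went from 35.1 ± 1.78 to 17.0 ± 5.54 CPM and in M512 from 36.4 ± 7.59 to 12.9 ± 0.827 CPM. The log2 fold changes of EHHADH were -1.53 (SE 0.26), -1.06 (SE 0.27) and -1.50 (SE 0.27), with adjusted p of 0.00150, 0.0207 and 0.000724 (edgeR, Benjamini-Hochberg). In IC the level was 26.9 ± 4.13 and 26.6 ± 2.28 CPM. EHHADH was the only list gene of 95 for which edgeR called a difference in the effect of Sorafenib between 24 h and 6 h in the controls (difference -1.55, SE 0.31, Benjamini-Hochberg adjusted edgeR p 0.0462). Of the 95, 17 had an unadjusted p under 0.05, beside 1709 of all 12500 genes, and DESeq2 called 5. The edgeR call of EHHADH was kept in 2 of 12 fits that left out a library. Its highest adjusted p was 0.174, without MC_Sorafenib replicate 3. Time and the kind of control oligonucleotide changed together in this comparison too and cannot be told apart.

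SULT2A1, a sulfotransferase of steroids and bile acids, went from 83.0 ± 11.7 to 26.5 ± 8.97 CPM in MC and from 88.4 ± 5.67 to 25.0 ± 10.8 CPM in M512. Its log2 fold changes were -1.65 (SE 0.31) and -1.81 (SE 0.31), with adjusted p of 0.00324 and 0.000455 (edgeR, Benjamini-Hochberg). LIPC, hepatic lipase, fell by 1.04 (SE 0.28) in MC and by 1.34 (SE 0.27) in M512 on the log2 scale, and DGAT2, which makes triglycerides, by 0.98 (SE 0.21) and 0.81 (SE 0.21). The call of LIPC in MC was kept in 1 of 6 fits that left out a library. The calls of DGAT2 were kept in 3 of 6 fits in MC and in 3 of 6 in M512.

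By list, edgeR called 2 of 21 genes of mitochondrial beta-oxidation in M512, both lower (9.52%, beside 4.62% of all genes called lower). For peroxisomal oxidation it was 3 of 15 (20%), for ketone bodies 1 of 4 (25%) and for lipid droplets and triglycerides 2 of 13 (15.4%). For fatty acid uptake and activation it was 4 of 13 (30.8%) and for other known targets of PPAR alpha 3 of 8 (37.5%). All that edgeR called in these short lists were lower. Among 11 receptor partners and coregulators it called 3, of which the coactivator MED1 was lower at -0.59 (SE 0.17) and LPIN1 and SIRT1 were higher at 0.89 (SE 0.29) and 1.02 (SE 0.31). None was called among 10 genes around pyruvate dehydrogenase and 3 of the ANGPTL family, with 2 and 0 at an unadjusted p under 0.05. Examples chosen after their values were seen are PEX11A, a factor of peroxisome division, at -2.14 (SE 0.38), ACADSB, a dehydrogenase of branched short acyl chains, at -1.76 (SE 0.30), and ACSL5, which activates long-chain fatty acids, at -1.03 (SE 0.25). PPARGC1A, the coactivator PGC-1 alpha, did not pass in M512, at -1.11 (SE 0.46).

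These counts depended on single libraries. In M512 the number of list genes called was 9 without M512_DMSO replicate 2 or 3, 10 without M512_DMSO replicate 1 and 11 without M512_Sorafenib replicate 3. In MC the count was 2 when MC_DMSO replicate 1, MC_Sorafenib replicate 1 or MC_Sorafenib replicate 3 was left out, and 9 without MC_Sorafenib replicate 2. In M222 it was 0 without M222_DMSO replicate 3 or M222_Sorafenib replicate 1 or 3, and 4 without M222_Sorafenib replicate 2.

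**Figure D5:**
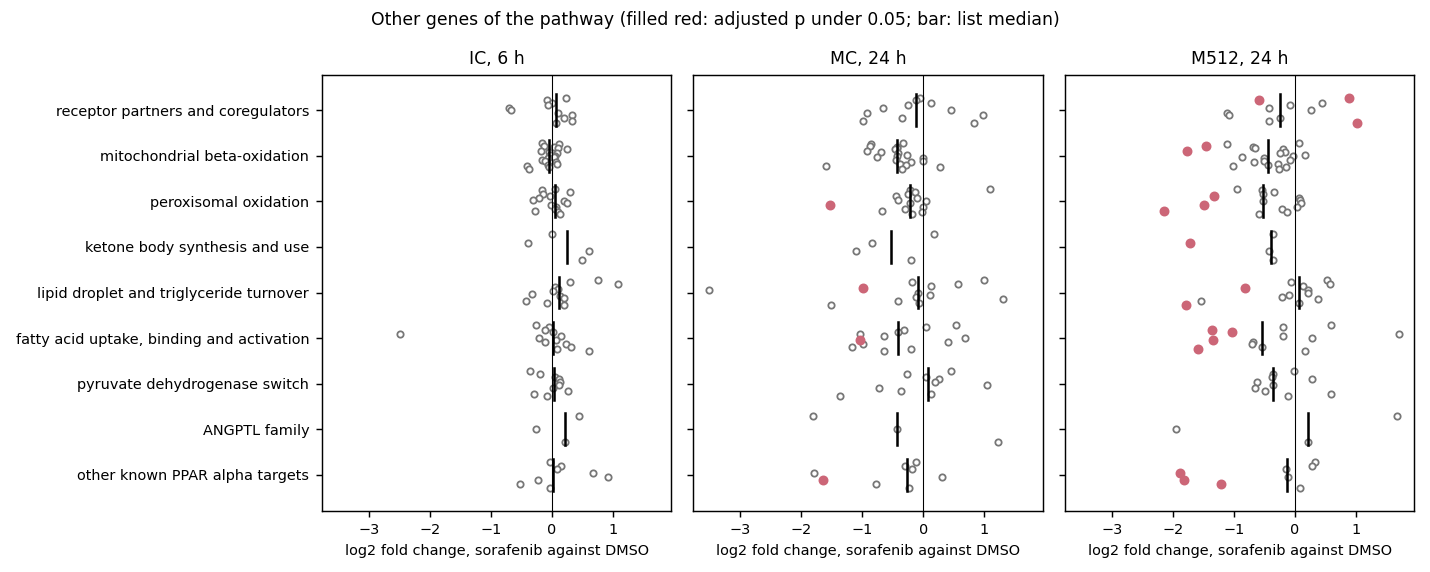
Effect of Sorafenib against DMSO on the other genes of the pathway, as log2 fold change, in IC at 6 h and in MC and M512 at 24 h, with a point for each gene tested and a vertical bar for each list's median. Filled red points passed an adjusted p of 0.05, none in IC, 4 in MC (all lower) and 18 in M512 (16 lower, 2 higher).

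Against the mimic and inhibitor controls, edgeR called 0 genes of the lists in each of the 6 comparisons. At an unadjusted p under 0.05 there were 2 and 1 for I200c, 5 and 4 for M222 and 16 and 10 for M512, in DMSO and Sorafenib respectively. Over all genes there were 667 and 273 of 12738 for I200c. For M222 there were 737 and 800 of 13244 and for M512 1385 and 1465. Of the list genes DESeq2 called 1, higher, in M512 with DMSO and 0 in the other 5. In the 3 interactions with Sorafenib, 1, 0 and 5 list genes had an unadjusted p under 0.05 for I200c, M222 and M512. Over all genes there were 413, 260 and 667, and both tools called 0 list genes.

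The genes whose log2 levels followed each member most closely were sought among 13904 genes over all 30 libraries, which share their groups and treatments, so the coefficients are a description. For PPARA they were TBC1D2 (Pearson's r 0.81), TRIM26 (0.80) and DPYSL2 (0.78). For FABP1 they were ALB, the albumin gene (0.86), ACSL5 (0.86) and NDRG1 (0.86). PLIN2 was followed by GPT2 (0.84), ATG101 (0.80) and AHSG (0.79), and CPT1A by SLC35E2B (0.84), NEU3 (0.84) and GABPB1-AS1 (0.82). CPT2 was followed by CLDN19 (0.80), WBP1L (0.78) and FDPS (0.76), ACADVL by JAK1 (0.76) and IFITM2 (0.72), and ANGPTL4, at its low counts, by OTULIN (0.69), SMG1P2 (0.67) and ZNF274 (0.67). Between members the highest coefficient was that of PPARA with CPT1A, at 0.55, and the lowest that of PPARA with ANGPTL4, at -0.41.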

How the data were processed

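Gene counts were made by the authors in the QuantSeq pipeline of Bluebee, where trimmed reads were aligned to GRCh38 by STAR (ENCODE settings, modified) and assigned by HTSeq-count. The tables they deposited hold raw counts for 60107 genes in 30 libraries, and normalised values of the same libraries, which were not used. The annotation release, strand setting and use of molecular identifiers are not given in the sources used here. Left out were 92 lines that named no gene and held 3 counts. A symbol was found for 56104 genes.

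The 12 libraries of 6 h, the 18 of 24 h and the 12 of the controls were fitted separately with edgeR 4.0.16 in R 4.3.3 (filterByExpr, TMM, 1 coefficient per group, quasi-likelihood F test, two-sided). A gene was called at a p under 0.05 after Benjamini-Hochberg adjustment over all genes tested. The SE of a log2 fold change was derived from the test, as its absolute value divided by the square root of the F statistic. The scripts were tested on simulated data. Replicates of a group differed by more than counting error (chi-square per degree of freedom 4.54 to 66.2 over 30 pairs). Same-numbered libraries deviated together, with every correlation over 0.1, only for M222 against MC in DMSO (0.12 to 0.14). A replicate block called no member there. HBB was at 73.8 and 33.7 CPM in replicate 3 of IC_DMSO and IC_Sorafenib, against 4.12 to 7.35 CPM in their other libraries. Replicate 2 had the lowest total in each MC and M222 group (3941570 to 4939876 counts), but not in M512_Sorafenib. What a shared number marks is not stated, and whether M512 was prepared apart from MC was not tested.

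Members and gene lists were chosen with earlier results of these data known. Named by rule were the 8 members, list genes called in at least 2 Sorafenib comparisons or in any other comparison, and for each member the 3 genes with the highest correlation. A few items that these rules select are not reported here. Alternatives were other scalings, DESeq2 1.42.0, no filter on low counts, a replicate block and leaving out each library.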

Additional observations from a re-analysis of the deposited data

Results flagged for a closer look

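The effect of Sorafenib on EHHADH differed between the transfection controls at 24 h and 6 h by -1.55 on the log2 scale (SE 0.31, Benjamini-Hochberg adjusted edgeR p 0.0462), by a test of the difference itself. The difference missed the threshold in 10 of the 12 fits that left out a library and with 1 of the 5 other settings. It set MC at 24 h against IC at 6 h, so time and the kind of control oligonucleotide cannot be told apart.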

How the results depend on the processing

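The falls of PPARA and FABP1 with Sorafenib in M512 passed the threshold in all 6 fits that left out a library and under all 5 other settings. Their log2 fold changes ranged from -1.87 to -1.46 and from -1.87 to -1.60. The count of members called moved to 0 with total counts for M512 against MC in DMSO (FABP1, adjusted p 0.0746). For Sorafenib in MC it moved to 2 with DESeq2, to 1 with no filter on low counts and to 1 with the replicate block (FABP1, lower). The count of list genes called in MC moved to 9 with DESeq2 and 8 with no filter. In M222 it moved to 2 with total counts, 6 with DESeq2, 6 with no filter and 2 with the replicate block. In I200c it moved to 1 with DESeq2 and 3 with no filter. The cause of these changes was not tested. The replicate block changed no other count of calls by over 1.5 times.

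Without a library at a time, members called numbered 0 to 1 in I200c (1 without I200c_DMSO replicate 2), 0 to 1 in MC (1 without MC_Sorafenib replicate 2), 2 to 3 in M512, 0 to 0 for M512 against MC in DMSO, 0 to 1 for M512 against MC in Sorafenib and 0 to 1 for the interaction with time. List genes called numbered 0 to 2 in I200c (2 without I200c_DMSO replicate 2), 2 to 9 in MC, 0 to 4 in M222 and 9 to 14 in M512. Over the 26 members' values with an unadjusted p under 0.05, 309 refits changed no sign, while 8 lost and 9 gained a call. Over the other 79 values, 98 of 1007 refits changed sign, so directions of values with an unadjusted p of at least 0.05 carry no weight. Libraries of this depth held at most 3 counts of PDK4, and ANGPTL4 rested on 0 to 32 counts.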
